A study of Mus musculus with 8 samples.

Results

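The genes of the retinoblastoma gate of the cell cycle were followed in 8 primary mouse osteosarcomas, malignant tumours of bone-forming cells. They were the Rb family (Rb1, Rbl1, Rbl2), the D cyclins (Ccnd1, Ccnd2, Ccnd3), their kinases (Cdk4, Cdk6) and the CDK inhibitors Cdkn2a and Cdkn2c. Genes were chosen by symbol, and all 10 were found among 19938 genes measured, each read by 1 probe set. All tumours arose in C57Bl6 mice. The 4 shRNA OS tumours carried the p53 hairpin transgene P53.1224, and the 4 Cre:lox OS tumours carried 2 floxed p53 alleles (P53fl/fl). In each model 3 tumours were Rbfl/+, with 1 floxed and 1 unmodified Rb allele, and 1 was Rb+/+. The Rb+/+ tumours were shRNA OS replicate 2, from the tibia, and Cre:lox OS replicate 1, from the scapula. Of the Rbfl/+ tumours, shRNA OS replicate 4 and Cre:lox OS replicate 2 came from the humerus and the other 4 from the tibia. The labels name neither the Cre driver nor the promoter of the hairpin, and they do not state whether the floxed Rb allele was lost in a tumour. Every tumour carried the hairpin or the floxed p53 alleles, so no group without a p53 alteration enters these comparisons.

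In a dividing cell, D cyclins bind CDK4 or CDK6, and the complex phosphorylates the Rb protein and its relatives p107 (Rbl1) and p130 (Rbl2). Unphosphorylated, these pocket proteins hold E2F transcription factors and keep S phase genes off. The INK4 inhibitors, among them p16 from Cdkn2a and p18 from Cdkn2c, block CDK4 and CDK6, and a second reading frame of Cdkn2a encodes p19Arf, which restrains Mdm2 and so acts on p53. Loss of RB1 is a known lesion of osteosarcoma, and E2F itself drives transcription of Rbl1.

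Values are log2 expression values computed by the authors with RMA, so 1 unit is a doubling. The 8 array medians ran from 7.13 to 7.23. Each of the 10 genes lay above the array median in all 8 tumours. Of the osteoblast lineage markers measured, Sp7, Alpl, Col1a1, Col1a2, Ibsp, Dlx5 and Dmp1 also lay above it in all 8, with medians from 8.48 for Dmp1 to 13.42 for Col1a1. One array, that of the Rb+/+ tumour shRNA OS replicate 2, differed from the rest. It correlated with them at 0.941 on average, where the others reached 0.961 to 0.968, and its interquartile range was the narrowest (2.59 against 2.79 to 3.19). The value without that array is given beside many of the results below, but not beside every result that it moves.

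Promoter sequence was examined for 7 of the 10 genes, in 250 bases before each annotated start (RefSeq, build GRCm38.p6). Searched on both strands were 4 spellings of the E2F site, TTTCCCGC, TTTCGCGC, TTTGCCGC and TTTGGCGC, and the E-box CACGTG, the site of Myc and related factors. An E2F spelling occurred in 1.86% and an E-box in 6.02% of 32851 such windows of the reference, and matches of both kinds overlapped in 1 window. Among the genes studied, E2F spellings occurred before Rbl1 and before the upstream start of Cdkn2a (the start of the p19Arf transcript). E-boxes occurred before Cdk4, with 4 matches, and Cdk6, with 1. Rbl1 followed the E2F targets across tumours, and Cdk4 and Cdkn2a moved with some of their neighbours (below). The windows of these genes are therefore shown. Each runs 5′ to 3′ on the gene's strand, with matches in capitals.
Rbl1, chr2:157204535-157204784, minus strand: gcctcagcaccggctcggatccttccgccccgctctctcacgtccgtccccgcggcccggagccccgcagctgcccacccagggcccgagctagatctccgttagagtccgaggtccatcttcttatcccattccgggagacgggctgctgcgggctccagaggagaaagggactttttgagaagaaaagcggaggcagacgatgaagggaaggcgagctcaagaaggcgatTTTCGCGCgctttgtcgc
Cdkn2a, upstream start, chr4:89294620-89294869, minus strand: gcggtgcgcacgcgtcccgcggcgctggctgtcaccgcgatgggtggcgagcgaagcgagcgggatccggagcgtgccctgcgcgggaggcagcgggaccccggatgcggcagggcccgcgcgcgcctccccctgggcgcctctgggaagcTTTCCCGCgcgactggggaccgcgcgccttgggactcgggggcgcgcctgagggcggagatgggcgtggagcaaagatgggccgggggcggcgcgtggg
Cdk4, chr10:127063285-127063534, plus strand: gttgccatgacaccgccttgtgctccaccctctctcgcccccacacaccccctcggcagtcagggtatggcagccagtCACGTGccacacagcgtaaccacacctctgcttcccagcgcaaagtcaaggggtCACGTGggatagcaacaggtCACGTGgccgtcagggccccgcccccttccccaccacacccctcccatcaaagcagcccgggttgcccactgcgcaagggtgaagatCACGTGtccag
The Rbl1 match lay 18 to 11 bases before the start and the Cdkn2a match 99 to 92 bases before it. The Cdk4 matches began 172, 118, 98 and 11 bases before the start. A match is a description of these letters only.

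Rb1 varied little, with a range of 0.61 over the 8 tumours where the median range of all genes was 0.79. In shRNA OS, replicates 1 to 4 in order, it measured 9.40, 9.54, 9.17 and 9.15. In Cre:lox OS, in the same order, it measured 9.34, 9.31, 9.10 and 9.71. All values below follow this order. The highest value, in Cre:lox OS replicate 4, belonged to an Rbfl/+ tumour, and the Rb+/+ tumours (9.54 and 9.34) lay inside the Rbfl/+ range. The difference, Rbfl/+ minus Rb+/+ with the model as a covariate, was -0.13 (SE 0.20, 95% interval -0.58 to 0.31, limma adjusted p = 0.894), and it was 0.037 without shRNA OS replicate 2. The interval reaches down to 0.67 times the Rb+/+ level. The position of the probes relative to the floxed segment is unknown here, and Rb1 levels are therefore no check of the genotype labels.

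Rbl1, which encodes p107, was 10.09, 9.04, 9.44 and 9.12 in shRNA OS and 9.99, 9.83, 9.43 and 9.41 in Cre:lox OS. The Rb+/+ tumours held opposite ends of their models, the lowest value in shRNA OS (9.04) and the highest in Cre:lox OS (9.99). By Rb genotype the difference was therefore 0.04 (SE 0.30), with -0.43 when shRNA OS replicate 2 was left out and 0.52 when Cre:lox OS replicate 1 was. Between models, shRNA OS minus Cre:lox OS, it was -0.24 (SE 0.25, limma adjusted p = 0.829), and -0.12 without shRNA OS replicate 2.

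Rbl2, which encodes p130, the pocket protein best known from resting cells, was 8.33, 8.26, 8.83 and 8.98 in shRNA OS and 8.04, 7.80, 7.83 and 9.23 in Cre:lox OS. Cre:lox OS replicate 4 was 1.34 above the mean of the other 3 of its model and higher than every shRNA OS tumour. The differences were 0.35 (SE 0.37, limma adjusted p = 0.863) for Rbfl/+ minus Rb+/+ and 0.38 (SE 0.32, adjusted p = 0.786) for shRNA OS minus Cre:lox OS. Without Cre:lox OS replicate 4 they were 0.13 and 0.71 (SE 0.21, limma unadjusted p = 0.00792, adjusted p = 0.387). In that fit between models 8.23% of all genes had an unadjusted p under 0.05. Only that tumour made the models overlap (8.26 to 8.98 against 7.80 to 8.04 without it), so their separation followed from leaving it out.

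**Figure D1:**
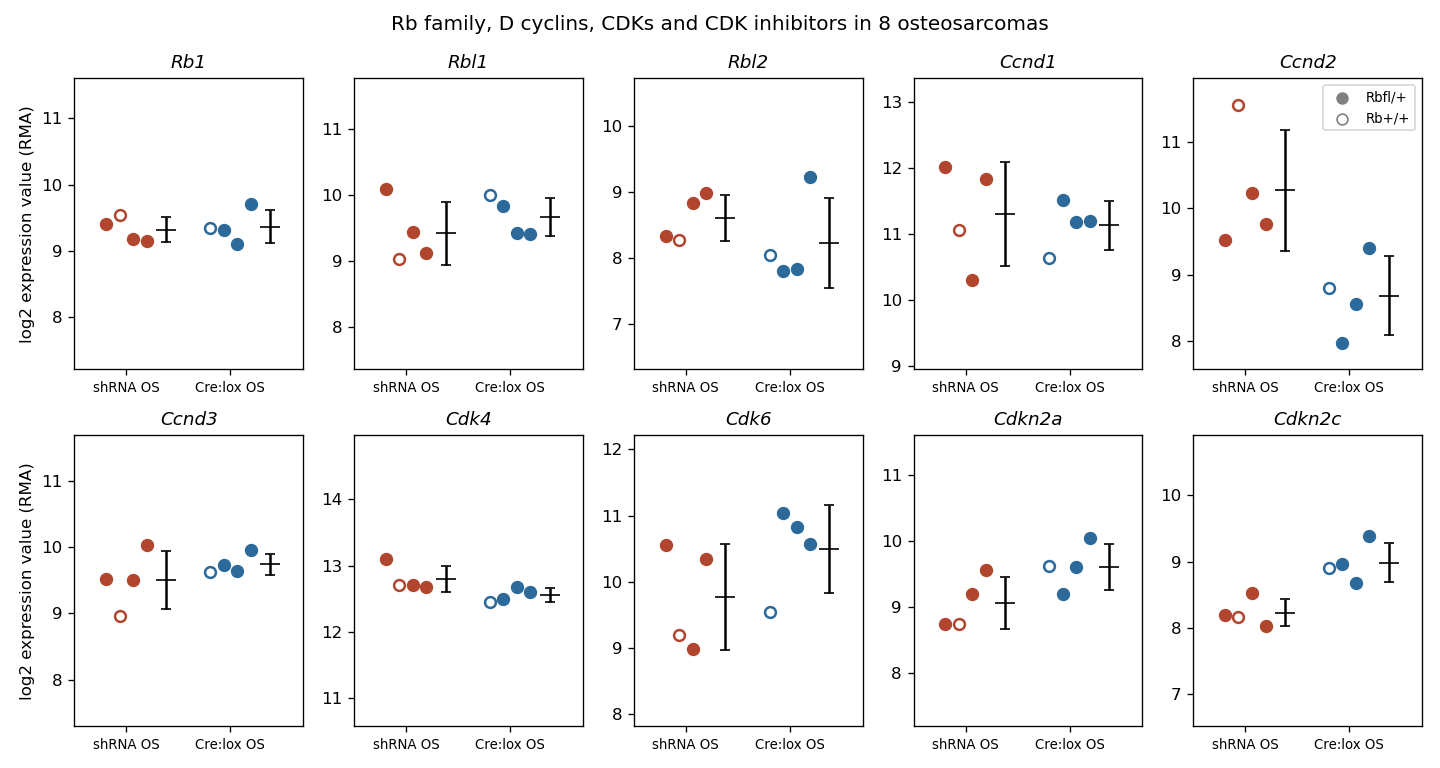
Log2 expression value (vertical axes, each spanning the same number of units) of the 10 genes in shRNA OS (red) and Cre:lox OS (blue). Each point is a tumour, filled for Rbfl/+ and open for Rb+/+, with replicates 1 to 4 from left to right, and the bars are the mean ± SD of a model (n = 4). Ccnd2 shows the widest spread, with shRNA OS replicate 2 at 11.57, and Cdkn2c lies lower in all 4 shRNA OS tumours than in any Cre:lox OS tumour.

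Among the D cyclins, Ccnd2 varied most, over 3.60 log2 units, a range wider than that of 99.4% of all genes. The range was 2.27 without shRNA OS replicate 2, wider than that of 96.5%. Its values were 9.53, 11.57, 10.24 and 9.77 in shRNA OS. In Cre:lox OS they were 8.79, 7.96, 8.56 and 9.40. Every shRNA OS tumour exceeded every Cre:lox OS tumour, by 0.124 at the closest, and shRNA OS replicate 2 stood highest of all. The means were 10.28 ± 0.91 and 8.68 ± 0.59 (SD, n = 4 each), a difference of 1.60 (SE 0.44, 95% interval 0.60 to 2.59), or 3.02-fold. In limma this gave an unadjusted p of 0.00522 and an adjusted p of 0.276, so the gene was not called. Without shRNA OS replicate 2 the difference was 1.16 (SE 0.32, adjusted p = 0.332), and among Rbfl/+ tumours alone it was 1.20 (SE 0.36).

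By Rb genotype the Ccnd2 difference, Rbfl/+ minus Rb+/+, was -0.94 (SE 0.43, limma adjusted p = 0.836). Without shRNA OS replicate 2 it was -0.15, and leaving out Cre:lox OS replicate 1, also Rb+/+, gave -1.72. Both values with a tumour left out rest on 1 Rb+/+ tumour.

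Ccnd1, the D cyclin most often linked to mitogen and Wnt signals, was 12.01, 11.06, 10.30 and 11.83 in shRNA OS and 10.63, 11.52, 11.18 and 11.19 in Cre:lox OS. Both extremes were shRNA OS Rbfl/+ tumours, replicate 1 with the highest and replicate 3 with the lowest value, and the range of 1.71 exceeded that of 90.7% of genes. Its mean difference between models was 0.17 (SE 0.36) and that by Rb genotype 0.49 (SE 0.40), with limma adjusted p = 0.925 and 0.836. Single tumours moved both. By Rb genotype it was 0.75 (SE 0.18, unadjusted p = 0.00298, adjusted p = 0.962) without shRNA OS replicate 3, it was 0.32 with Cre:lox OS replicate 1 left out, and between models it ran from -0.065 to 0.50 with each tumour left out.

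Ccnd3, the D cyclin prominent in lymphoid cells and differentiating muscle, was 9.51, 8.95, 9.50 and 10.03 in shRNA OS and 9.62, 9.73, 9.65 and 9.96 in Cre:lox OS. The lowest value was that of shRNA OS replicate 2, the tumour with the highest Ccnd2, and in Cre:lox OS the Rb+/+ tumour was also lowest. Its difference by Rb genotype was 0.44 (SE 0.21, unadjusted p = 0.0664, limma adjusted p = 0.836). It was 0.16 when shRNA OS replicate 2 was left out and 0.73 when Cre:lox OS replicate 1 was.

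Cdk4, the kinase partner of the D cyclins, was 13.09, 12.70, 12.70 and 12.68 in shRNA OS and 12.44, 12.50, 12.67 and 12.60 in Cre:lox OS. The models did not overlap, but the gap was 0.0043, and the difference of 0.24 (SE 0.14, limma adjusted p = 0.641) was 0.14 without shRNA OS replicate 1. That tumour lay 0.40 above the mean of the other 3 of its model.

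Cdk6, the second kinase, varied more than Cdk4, with a range of 2.07 that exceeded that of 94.5% of genes. Its values were 10.56, 9.19, 8.98 and 10.35 in shRNA OS and 9.54, 11.04, 10.82 and 10.58 in Cre:lox OS. Both Rb+/+ tumours were low, with 9.19 and 9.54, and of the 6 Rbfl/+ tumours 5 lay between 10.35 and 11.04. The sixth, shRNA OS replicate 3, held the lowest value of all, so the genotypes overlapped. Rbfl/+ minus Rb+/+ was 1.02 (SE 0.38, 95% interval 0.15 to 1.89), or 2.03-fold, with an unadjusted p of 0.0264 and a limma adjusted p of 0.836. With quantile normalization the difference was 0.88, and its unadjusted limma p was not under 0.05. Nor was that p under 0.05 when the model was not a covariate. Leaving out an Rb+/+ tumour gave 1.27 (SE 0.56) for shRNA OS replicate 2 and 0.77 (SE 0.56) for Cre:lox OS replicate 1. Between models the difference was -0.73 (SE 0.43, adjusted p = 0.648), from -1.05 to -0.46 with each tumour left out.

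Cdkn2c, which encodes p18, had the smallest p of the 10 genes between models. It was 8.20, 8.17, 8.52 and 8.03 in shRNA OS and 8.91, 8.96, 8.67 and 9.39 in Cre:lox OS. All shRNA OS tumours lay below all Cre:lox OS tumours, with a gap of 0.156. The means were 8.23 ± 0.21 and 8.98 ± 0.30 (SD, n = 4 each), a difference of -0.75 (SE 0.18, 95% interval -1.16 to -0.35). Its unadjusted p was 0.00199 and its limma adjusted p 0.233. The difference was -0.76 among Rbfl/+ tumours and -0.73 without shRNA OS replicate 2, and over all single tumours left out it ran from -0.86 to -0.62. By Rb genotype it was 0.09 (SE 0.22).

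Cdkn2a was 8.75, 8.75, 9.20 and 9.56 in shRNA OS and 9.62, 9.20, 9.60 and 10.05 in Cre:lox OS. The models overlapped through shRNA OS replicate 4 (9.56) and Cre:lox OS replicate 2 (9.20). Its difference between models was -0.55 (SE 0.23, 95% interval -1.07 to -0.03, unadjusted p = 0.0412, limma adjusted p = 0.488). By Rb genotype it was 0.21 (SE 0.27). The 1 probe set for this gene does not separate the p16 and p19Arf transcripts here.

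**Figure D2:**
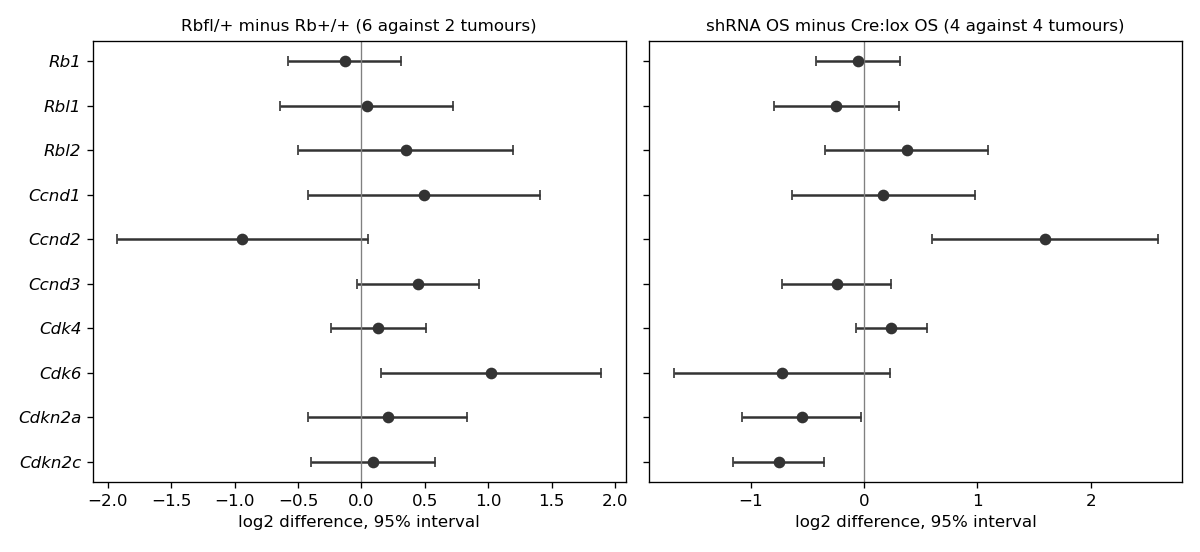
Log2 difference with its 95% interval from limma (horizontal axes) for the 10 genes, by Rb genotype with the model as a covariate (left) and by model (right). Intervals are not adjusted for multiple tests, and those of Cdk6 (left) and of Ccnd2, Cdkn2a and Cdkn2c (right) lie to 1 side of 0.

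None of the 10 genes passed limma at an adjusted p of 0.05 in either comparison. By Rb genotype 0 of all 19938 genes (0%) passed. Before adjustment, 1 of the 10 genes (Cdk6) had p under 0.05, as did 4.73% of all genes. The Rb genotypes did not overlap in 0 of the 10 genes and in 4.63% of all genes. Between models 0.0201% of all genes passed. There, before adjustment, 3 of the 10 genes (Ccnd2, Cdkn2a, Cdkn2c) and 9.63% of all genes had p under 0.05. The models did not overlap in 3 of the 10 (Ccnd2, Cdk4, Cdkn2c) and in 5.44% of all genes. By Rb genotype 8 of the 10 genes had higher and 2 lower means in Rbfl/+, with a median difference of 0.17 against -0.02 over all genes, and Rbl1 and Cdkn2c turned negative with quantile normalization. With shRNA OS replicate 2 left out, Rbl1 and Cdkn2a turned negative and Rb1 positive. Between models 4 were higher and 6 lower in shRNA OS, with a median of -0.15 against 0.01 over all genes, and Rb1 turned positive with quantile normalization.

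Further regulators of the same gate showed no call either. Of 27 genes listed (other CDK inhibitors, cyclins E and A2, Cdk2, the E2F and DP factors, subunits of the DREAM and MuvB complexes and their partners) all were measured. By Rb genotype 18 had higher and 9 lower means in Rbfl/+, with a median of 0.16, and none passed (16 and 11, with a median of 0.02, after quantile normalization). That direction turned without shRNA OS replicate 2, with 5 higher, 22 lower and a median of -0.21. With Cre:lox OS replicate 1, also Rb+/+, left out, 24 were higher and 3 lower, with a median of 0.49. The smallest p values belonged to Lin37, a MuvB subunit (0.43, SE 0.17), Cdk2, the partner of cyclins E and A (0.49, SE 0.24), and E2f4, the E2F most often bound by p130 (0.50, SE 0.25), each with limma adjusted p = 0.836. Between models 12 were higher and 15 lower in shRNA OS, with a median of -0.08, which turned to 0.01 with quantile normalization (14 higher, 13 lower) and to 0.12 without shRNA OS replicate 2 (16 higher, 11 lower). Leading were Tfdp1, the dimerisation partner of E2F (-0.60, SE 0.24, adjusted p = 0.452), Cdkn2b, which encodes p15 (-0.64, SE 0.26, adjusted p = 0.458), and E2f1 (-0.47, SE 0.25, adjusted p = 0.598).

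Genes that E2F activates in S phase were taken as the readout downstream of the pocket proteins. Of 24 listed, 23 were measured, and each tumour's score was the mean deviation of these genes from their means over the 8 tumours. Between models 21 had lower and 2 higher means in shRNA OS, with a median of -0.35 against 0.01 over all genes. None passed limma, and 6 of 23 had an unadjusted p under 0.05, as did 9.63% of all genes. Quantile normalization gave 18 lower and 5 higher, with a median of -0.25. Leaving out shRNA OS replicate 2 gave 16 lower and 7 higher, with a median of -0.19. Pola1, a subunit of DNA polymerase alpha, stood at -0.65 (SE 0.15, adjusted p = 0.228), the helicase subunit gene Mcm3 at -0.78 (SE 0.23, adjusted p = 0.307) and Tyms, which encodes thymidylate synthase, at -0.72 (SE 0.22, adjusted p = 0.317). By Rb genotype 20 were higher and 3 lower in Rbfl/+, with Prim1 (0.61), Mcm3 (0.47) and Mcm7 (0.53) leading at limma adjusted p = 0.836. The median was 0.20, and after quantile normalization it was 0.06, with 15 higher and 8 lower. That direction also turned without shRNA OS replicate 2, with 8 higher, 15 lower and a median of -0.08 (-0.03 over all genes). Without Cre:lox OS replicate 1 all 23 were higher, with a median of 0.50 (0.04 over all genes). Either fit rests on 1 Rb+/+ tumour. The score was 0.17, -0.54, -0.07 and -0.16 in shRNA OS and 0.23, 0.31, -0.02 and 0.08 in Cre:lox OS. The Rb+/+ tumours thus held the lowest score of all (shRNA OS replicate 2) and the second highest (Cre:lox OS replicate 1), the same ranks that they held for Rbl1.

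Each of the 10 genes was set against this score over the 8 tumours with an exact 2-sided permutation test, adjusted over the 10 relations. Rbl1 was high where the score was high, with r = 0.86 (exact permutation p = 0.0031, adjusted p = 0.0305) and rho = 0.81 (p = 0.0218, adjusted p = 0.109). Ccnd2 ran the other way, with r = -0.88 (exact permutation p = 0.0063, adjusted p = 0.0316) and rho = -0.81 (p = 0.0218, adjusted p = 0.109). Without the 2 tumours farthest from the median of the gene, r was 0.91 for Rbl1 and -0.46 for Ccnd2, so the Ccnd2 relation was weaker without those tumours. Leaving them out also narrows the range of the gene, which by itself can lower r. Without shRNA OS replicate 2, r was 0.86 for Rbl1 (adjusted p = 0.198) and -0.68 for Ccnd2 (adjusted p = 0.480), and 0 of the 10 relations passed. With quantile normalization the call of Rbl1 was lost (r = 0.78, adjusted p = 0.128) and that of Ccnd2 was kept (r = -0.91, adjusted p = 0.0159). With model means removed and tumours permuted within models, r was 0.86 and -0.82 with adjusted p = 0.226 for both. Leaving out any 1 of another 4 tumours (replicates 3 and 4 of shRNA OS, replicates 1 and 2 of Cre:lox OS) also ended the call of both relations, with adjusted p from 0.0556 to 0.133. Leaving out Cre:lox OS replicate 4 ended that of Ccnd2 (adjusted p = 0.0556). Models of 4 tumours are too small for a value within each. The other 8 genes had r between -0.25 (Rbl2) and 0.57 (Cdkn2c), with Rb1 at -0.08.

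**Figure D3:**
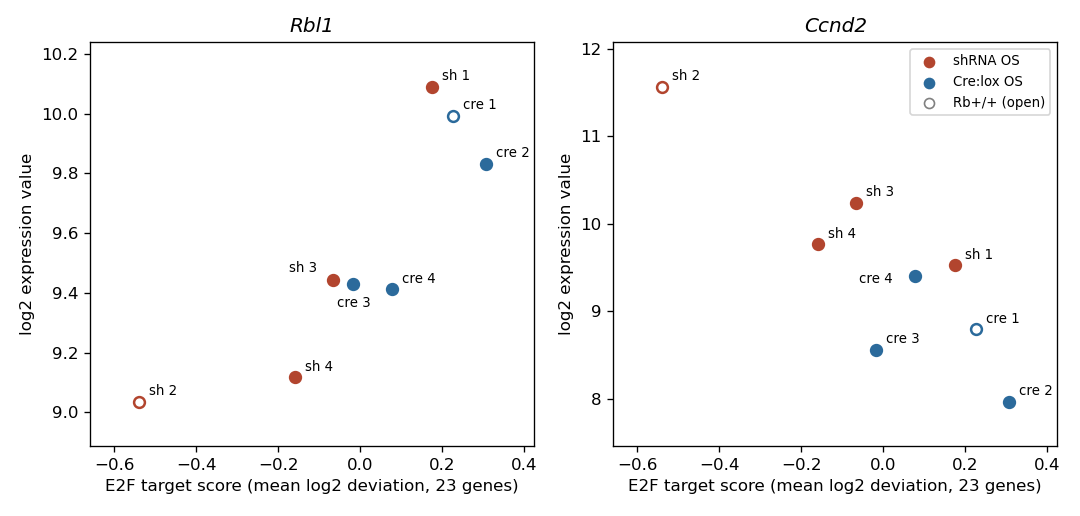
Log2 expression value of Rbl1 (left) and Ccnd2 (right) against the E2F target score, the mean log2 deviation of 23 genes, in 8 tumours (sh, shRNA OS in red, and cre, Cre:lox OS in blue, with replicate numbers and Rb+/+ tumours open). Rbl1 increases with the score (r = 0.86) and Ccnd2 decreases (r = -0.88), with shRNA OS replicate 2 at the far left of both panels.

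Relations among the 10 genes themselves were weaker, and of 45 pairs 0 passed after adjustment over the 45 in exact permutation tests (smallest adjusted p = 0.597). Before adjustment 2 pairs had p under 0.05. Ccnd2 and Cdk6 had r = -0.72 (exact permutation p = 0.0369) and rho = -0.83 (p = 0.0154), with r = -0.47 without the 2 tumours farthest in Ccnd2. Ccnd3 and Cdkn2a had r = 0.76 (exact permutation p = 0.026) and rho = 0.55 (p = 0.171), with r = 0.77 without the 2 tumours farthest in Ccnd3. Ccnd1 and Cdk6 had r = 0.72 (exact permutation p = 0.0512) and rho = 0.60 (p = 0.132). With model means removed that pair had r = 0.93 (exact permutation p within models 0.0035, adjusted p = 0.0781), and it is named after its values were seen. In shRNA OS, replicates 1 and 4 were high in both Ccnd1 and Cdk6, and replicates 2 and 3 were lower in both. In Cre:lox OS, replicate 1 was lowest and replicate 2 highest in both genes.

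**Figure D4:**
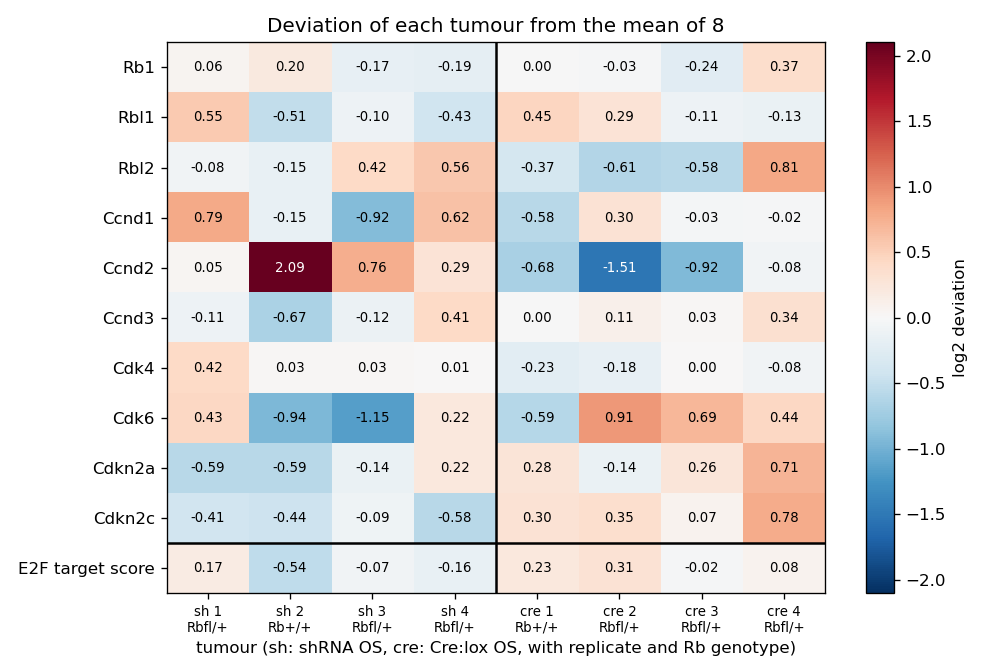
Deviation of each tumour from the mean of 8, in log2 units, for the 10 genes and, in the last row, for the E2F target score (red above and blue below the mean, columns by model and replicate with the Rb genotype). shRNA OS replicate 2 combines the highest Ccnd2 (2.09) with low Rbl1 (-0.51), Ccnd3 (-0.67) and Cdk6 (-0.94) and the lowest score (-0.54).

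Genes with a profile like that of Ccnd2, the most variable of the 10, were ranked by Pearson r over the 8 tumours. The highest were Mir340 (0.94), Mir136 (0.94), Clec2g (0.94), Mir218-1 (0.94) and Pald1 (0.93), with 20 of 19937 genes above 0.9. The most opposite were Cnnm4, Gskip and Traf2 (each -0.98), with 149 genes below -0.9. Without shRNA OS replicate 2 these 8 genes had r from 0.85 to 0.93 and from -0.97 to -0.95. All share the same 8 arrays, 1 of which stands far from the rest in Ccnd2, so these values are a description. Mir340, Mir136 and Clec2g lay below the array medians in all 8 tumours.

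The genes beside each member were examined to see whether a tumour that stood apart did so together with its neighbourhood, taking the 5 nearest measured genes on each side (order from GRCm38.p6). For Ccnd2 most neighbours did not follow it. In shRNA OS replicate 2, where it was 2.09 above its mean over the 8 tumours, its 10 neighbours averaged -0.03, with the adjacent genes Tigar at 0.03 and Parp11 at -0.07. Prmt8, the third gene on the Parp11 side, was 0.46 above its mean there and had r = 0.89 with Ccnd2. Its values (5.05 to 5.80) lay below the array medians in all 8 tumours. Cdk6 had neighbours in the table on 1 side only. In shRNA OS replicate 3, where Cdk6 was -1.15, those 5 averaged 0.06, with the adjacent Fam133b at 0.20.

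Cdk4 moved with several of its neighbours. In shRNA OS replicate 1 it was 0.42 above its mean, its 10 neighbours averaged 0.44, and 8 of the 10 were above their means there. In 7 of the 10 that tumour held the highest value. Mettl1 (0.93), Tspan31 (0.84), Eef1akmt3 (0.84), Os9 (0.78) and Tsfm (0.63) deviated most. The direct neighbours Marchf9 and Tspan31 had r = 0.62 and 0.92 with Cdk4 over the 8 tumours. Over all 10 neighbours r ran from -0.14 (B4galnt1) to 0.92, with Cyp27b1 at -0.03 and Slc26a10 at 0.22. Tspan31 overlaps Cdk4 in the annotation, so their probe sets may share signal.

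Cdkn2a moved with both genes beside it, as did Cdkn2c (below). Mtap, a methionine salvage enzyme gene, had r = 0.93 and Cdkn2b r = 0.84 with Cdkn2a, while the other 8 neighbours had r between -0.47 and -0.08. Mtap, Cdkn2a and Cdkn2b were all highest in Cre:lox OS replicate 4, with deviations of 0.70, 0.71 and 1.08. In shRNA OS replicate 2 their deviations were -0.95, -0.59 and -0.53. Neither span overlaps that of Cdkn2a in the annotation.

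For the remaining members the direct neighbours were as follows. Rb1 had r = 0.50 with Rcbtb2 and 0.83 with Mir687, which overlaps it. Mir687 (5.12 to 6.14) lay below the array median in every tumour. In Cre:lox OS replicate 4, where Rb1 was 0.37 above its mean, 8 of its 10 neighbours were also above theirs. Rbl2 had r = 0.42 with Chd9 and 0.62 with the overlapping Aktip, and Cdkn2c had r = 0.76 with Faf1. The gene on the other side of Cdkn2c has a Rik symbol and is not named, and it had r = 0.77. Further along, Eps15 had r = 0.81 with Cdkn2c, and the rest ran from -0.71 (Ttc39a) to 0.45 (Bend5). Rbl1 had r = 0.09 with Samhd1 and 0.03 with Mroh8, and 0.93 with Dsn1, a kinetochore gene further along. Also further along were Soga1 (0.80), Rpn2 (0.67) and Manbal (0.65), and the rest ran from -0.43 (Ghrh) to 0.42 (Ndrg3). In shRNA OS replicate 1, where Rbl1 was 0.55 above its mean, 8 of its 10 neighbours were above theirs, averaging 0.14. Ccnd1 had r = 0.14 with the overlapping LTO1 and 0.65 with Tpcn2, and Ccnd3 had r = 0.42 with Taf8 and 0.27 with the overlapping Bysl. In shRNA OS replicate 3, where Ccnd1 was -0.92, 8 of its 9 neighbours were also below their means, averaging -0.22. In shRNA OS replicate 2, where Ccnd3 was -0.67, 7 of its 10 neighbours were below theirs, averaging -0.17.

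**Figure D5:**
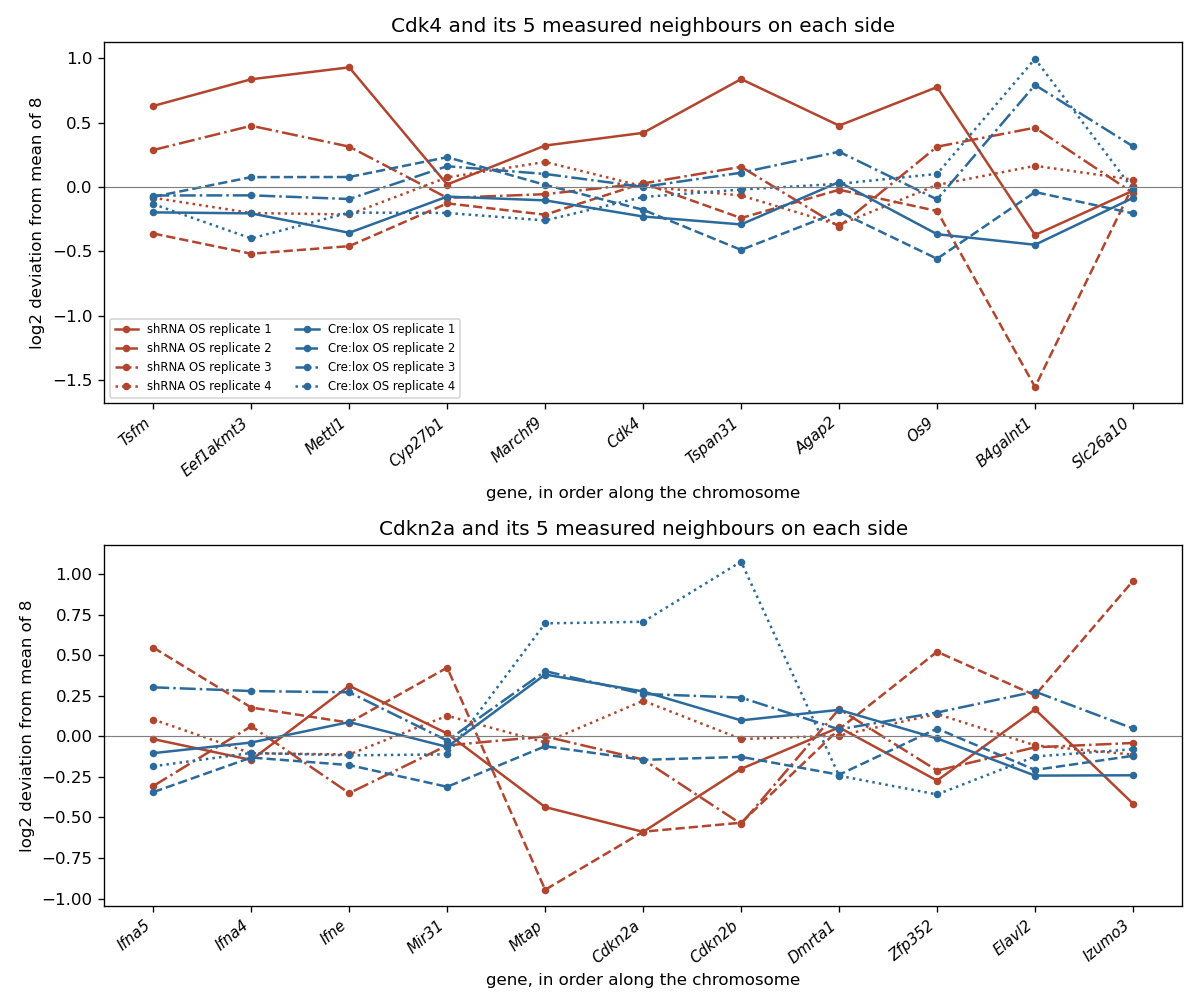
Log2 deviation from the mean of 8 tumours (vertical axes) for Cdk4 (top) and Cdkn2a (bottom) and 5 measured neighbours on each side, in order along the chromosome, with a line for each tumour. In shRNA OS replicate 1 the line runs above 0 from Tsfm to Os9, and Mtap, Cdkn2a and Cdkn2b spread together, from below 0 in shRNA OS replicate 2 to the highest values in Cre:lox OS replicate 4.

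Markers of other cell types were set beside these results, since tumours were measured in bulk, where fewer cells of a type and less RNA per cell cannot be told apart. Of the 11 marker lists no gene passed limma in either comparison. Between models, macrophage markers had lower means in shRNA OS in 10 of 10 genes, with scores from -1.05 to 0.69 against -0.44 to 0.96 in Cre:lox OS. Fibroblast markers were lower in 5 of 6 (-1.29 to -0.11 against -0.23 to 1.29), and skeletal muscle markers in 8 of 9 (-1.28 to 1.23 against -0.90 to 1.17). B cell markers had higher means in 6 of 6 (0.02 to 0.16 against -0.27 to 0.02), endothelial markers in 6 of 7 (-0.18 to 0.28 against -0.58 to 0.33) and osteoblast lineage markers in 5 of 7 (0.02 to 0.41 against -0.57 to 0.02). Of the B cell markers, Cd79a, Ms4a1, Pax5 and Vpreb1 had means below the array medians in both models. The largest B cell difference was that of Ebf1 (0.89, SE 0.30, limma adjusted p = 0.386). These B cell genes were named after their values were seen. By Rb genotype, macrophage markers were higher in Rbfl/+ in 10 of 10 genes (-1.05 to 0.96 against -0.65 to -0.44), endothelial markers lower in 7 of 7 (-0.58 to 0.28 against 0.21 to 0.33) and osteoclast markers lower in 6 of 7 (-1.83 to 1.05 against 0.39 to 0.63). Fibroblast markers were higher in Rbfl/+ in 5 of 6 (median 0.31) and osteoblast lineage markers lower in 6 of 7 (median -0.13). Without shRNA OS replicate 2 the fibroblast median was 0.69 (6 of 6 higher) and the osteoblast lineage median -0.27. Without Cre:lox OS replicate 1 these medians were -0.13 (fibroblast, 2 higher and 4 lower) and -0.06. With quantile normalization fibroblast markers split by Rb genotype into 3 higher and 3 lower, with a median of 0.18. T and NK cell, neutrophil and erythroid lists had medians between -0.05 and 0.11 in both comparisons. Chondrocyte markers differed among themselves between models, with Acan lower in shRNA OS (-1.49, limma adjusted p = 0.319) and Col2a1 higher (0.79, adjusted p = 0.509), both without overlap, and these genes were named after their values were seen. With quantile normalization the macrophage, fibroblast (between models) and endothelial counts stayed the same, and B cell markers were higher in 5 of 6 and muscle markers lower in 9 of 9. With shRNA OS replicate 2 left out, B cell markers were higher in 4 of 6 between models. By Rb genotype macrophage markers were then higher in 9 of 10 and endothelial markers lower in 6 of 7. By Rb genotype the macrophage, endothelial and osteoclast medians were 0.73, -0.39 and -0.99. Without shRNA OS replicate 2 they were 1.21, -0.71 and -1.08. Without Cre:lox OS replicate 1 they were 0.38 (9 of 10 higher), -0.08 (5 of 7 lower) and -0.38 (7 of 7 lower). The part of these markers in the differences of Ccnd2, Cdkn2c, Cdkn2a and Cdk6, and in the E2F target score, was not tested.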

How the data were processed

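RNA of 8 tumours was hybridised to 1-colour arrays. The authors deposited log2 values computed with RMA (version and filters not given in the sources used here), with genome build mm9, per the submitters' processing notes. Of 35556 probe sets, 21789 had 1 gene symbol in the platform annotation, and the one of highest mean represented each of 19938 genes. Every gene studied here had 1 probe set.

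Differences were tested on all genes with limma 3.58.1 in R 4.3.3 (lmFit, eBayes, Benjamini-Hochberg adjustment, threshold 0.05), by Rb genotype with the model as a covariate and by model without one. The fits were tested on simulated data. Each title carries its own tumour identifier. The labels do not say that each tumour came from another mouse, so the spread behind each p-value is that of these 8 samples. Replicate numbers follow accession order and pair nothing, and the labels give no batch. Correlations used exact permutation tests over 40320 orders (Python 3.11.15), 5040 with 7 tumours and 576 within models. Neighbour order, names and promoters came from RefSeq tables of GRCm38.p6, another build than mm9.

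Named were all 10 genes, their direct neighbours, the 3 genes of smallest p per list and comparison, and 8 genes by likeness to Ccnd2. Further neighbours were named after their values were seen. Genes and lists were chosen with earlier results of these data known. Alternatives were quantile normalization, median centring, the mean of probe sets, a filter on dim genes, other moderation, array weights, site or Rb genotype as covariates, Rbfl/+ tumours only, and each tumour left out. The interaction of Rb genotype and model, correlations without each of the other 7 tumours, and permutation within models were added after seeing the data.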

Additional observations from a re-analysis of the deposited data

Results flagged for a closer look

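For the 10 genes and the E2F target score, the tumour farthest from the others was examined within each model and among the 6 Rbfl/+ tumours. By Dixon's criterion its gap was large in 4 of the 33 sets examined. Chance alone would give about 1.65, since it produces such a gap in roughly 1 set of 20, and the sets share tumours. Cdk4 in shRNA OS replicate 1 (13.09) was far above the other shRNA OS tumours and above the other Rbfl/+ tumours, together with neighbours such as Mettl1 and Os9. Rbl2 in Cre:lox OS replicate 4 (9.23) was far above the other Cre:lox OS tumours, of which the nearest was 8.04. That gap was 0.83 of the range, barely past the critical 0.829. Among the Rbfl/+ tumours its gap was 0.18 of the range against a critical 0.625, with the nearest at 8.98. Cdk6 in shRNA OS replicate 3 (8.98) was far below the other 5 Rbfl/+ tumours, of which the nearest was 10.35.

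Rbl1 was flagged because the Rb genotypes ran in opposite directions in the 2 models: all 3 Rbfl/+ tumours of shRNA OS lay above the Rb+/+ tumour and all 3 of Cre:lox OS below it. The difference between these effects was 0.95 (SE 0.53, limma adjusted p = 0.631), from 0.68 to 1.17 with each Rbfl/+ tumour left out. Each model had 1 Rb+/+ tumour, so the spread came from the Rbfl/+ tumours alone, and 1 of the Rb+/+ tumours was the array that stands apart.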

How the results depend on the processing

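No member passed limma in either comparison under any alternative run (330 values for 20 differences, smallest adjusted p = 0.111), and 319 kept their direction. The 11 reversals belonged to 6 differences near 0. With quantile normalization Rbl1 became -0.12 and Cdkn2c -0.054 by Rb genotype, and Rb1 0.045 between models. With each tumour left out, by Rb genotype Rb1 ran from -0.30 to 0.037, Rbl1 from -0.43 to 0.52 and Cdkn2a from -0.0026 to 0.42. Between models Rb1 ran from -0.14 to 0.064 and Ccnd1 from -0.065 to 0.50. Leaving out either Rb+/+ tumour leaves 1, whose spread is assumed to equal that of the others. Direction counts of the gene lists under other scalings and with tumours left out, added after seeing the data, stand beside those lists.

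By Rb genotype 0 genes passed under any alternative. Between models the count of 4 among all genes became 21 with quantile normalization, 2 with median centring, 19 with array weights, 13 with site as a covariate and 9 among Rbfl/+ tumours, and ran from 0 to 42 with each tumour left out. Of the relations with the E2F target score 2 passed, 1 with quantile normalization (Ccnd2), 0 with model means removed, and 0 to 2 with each tumour left out. Apart from these settings' own construction, such as fewer tumours, the cause was not tested. The number of arrays limits the precision of every value.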
